A study of Homo sapiens with 4 samples.

Results

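The genes described here are 33 components of protein folding and quality control in the endoplasmic reticulum (ER), out of 25609 genes in the deposited table. They were taken from a fixed list of symbols: luminal chaperones and co-chaperones, enzymes of disulfide formation, factors of ER-associated degradation, the stress sensors, and outputs of the stress response. All 33 were found in the table, and 31 passed the filter on low values (a mean of at least 0.5 RPKM over the 4 libraries, RPKM being reads relative to exon length and library size). ERO1B and ERN1 did not pass. Total RNA came from wild-type HK2 cells (HK-2), an immortalised line of human kidney proximal tubule epithelium, in 2 control libraries and 2 libraries labelled TGFbeta1. All cells were kept without serum for 24 h and the treated cells then received TGF-β1, a cytokine that drives matrix production, at 20 ng/mL for 24 h. The labels carry a single protocol for all 4 samples, with 100 μM 4-thiouridine (a uridine analogue taken up into new RNA) over the last 20 h, and controls were taken to differ by the absence of TGF-β1. Whether RNA holding the analogue was enriched before sequencing is not stated. No separate cultures are named, so the p-values reflect the spread of these 4 libraries alone, and that spread may be technical.

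Secreted and membrane proteins enter the ER unfolded, where the Hsp70 chaperone BiP (HSPA5), its co-chaperones, the lectins calnexin and calreticulin and the protein disulfide isomerases fold them. When unfolded protein builds up, the sensors IRE1α (ERN1), PERK (EIF2AK3) and ATF6 start the unfolded protein response. IRE1α splices the XBP1 transcript, ATF6 is cut to release a transcription factor, and PERK slows translation while favouring that of ATF4. Proteins that fail to fold are moved to the cytosol and degraded (ER-associated degradation). Cells that secrete much matrix depend on this machinery.

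Recovered reads (whole reads per gene worked back from the RPKM values) summed to between 3336692 and 5451702 a library, and mitochondrial genes took 8.79% to 9.82% of them. Of the 17 tubule epithelium markers measured, 11 were tested, 4 were called higher with TGF-β1 (KRT8, KRT18, LHX1 and CDH2) and 4 lower (PAX8, KRT19, EPCAM and DPP4). PAX8 measured 44.8 and 42.2 RPKM in controls and 15.5 and 14.7 RPKM with TGF-β1, and KRT8 71.9 and 80.6 RPKM against 167 and 183 RPKM. Of the brush-border and transport genes, DPP4 (166 to 338 reads) and GGT1 (294 to 425) were present, whereas ANPEP (1 to 4), MME (8 to 16), AQP1 (1 to 5), SLC3A1 (4 to 6) and CUBN (1 to 2) had few reads. The endothelial markers VWF and CDH5 had 0 reads in all 4 libraries. The 5 fibroblast markers measured summed to 107 to 191 reads, 95 to 182 of them from LUM, and to 12.6 and 13.2 RPKM in controls against 9.03 and 7.14 RPKM with TGF-β1. The 3 leukocyte markers measured summed to 44 and 65 reads in the control libraries and 230 and 264 in the others, of which CSF1R alone gave 36, 49, 216 and 256, while CD68 had 1 to 4 reads. The part of these markers in the results below was not tested.

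Some of these genes share a promoter word that ATF6 and the transcription factor NF-Y are known to use together, the ER stress element. The window searched, on both strands, ran from 250 bases before to 50 bases after 1 RefSeq transcription start per gene. For several genes, CANX, TRIB3, PDIA6 and DNAJB11 among them, that start lies inside the annotated gene, and other starts were not searched. The element was searched as CCAAT followed after 9 bases by CCACG. Its second form was searched as ATTGG followed after 1 base by CCACG. Promoters were in the RefSeq table (build GRCh38.p14) for 30 of the 33 genes, all but PDIA3, DERL1 and DERL3. The first form was present in 7 of the 30 (23.3%) against 22 of 27305 promoters in the table (0.0806%). The second form was present in 3 of the 30 (10.0%) against 15 of all (0.0549%). In all, 10 of 30 (33.3%) held either form, against 37 of all promoters (0.136%). These genes include the classic ones in which the element was defined, so its presence is a description of the list and not a result of the treatment.

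The stretches of promoter that hold these elements are printed here because they tie the genes together apart from their expression. Each runs 5′ to 3′ on the strand of the gene, with the element in capitals, read on either strand. The first 5 belong to genes that rose with TGF-β1 (values below), and the last 4 to genes that did not pass the test. They lie at chr9:125241381-125241419 (minus strand, HSPA5), chr12:103930206-103930349 (plus, HSP90B1), chr11:119057264-119057403 (minus, HYOU1), chr19:12938374-12938412 (plus, CALR), chr22:28800593-28800631 (minus, XBP1), chr5:179698768-179698806 (plus, CANX), chr16:56931956-56932045 (plus, HERPUD1), chr22:21642104-21642134 (plus, SDF2L1) and chr22:49918544-49918582 (plus, CRELD2).
HSPA5: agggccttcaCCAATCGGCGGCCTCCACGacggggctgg
HSP90B1: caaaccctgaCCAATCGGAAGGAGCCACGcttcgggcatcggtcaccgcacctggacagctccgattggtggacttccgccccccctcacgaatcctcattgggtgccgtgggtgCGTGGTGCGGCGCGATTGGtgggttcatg
HYOU1: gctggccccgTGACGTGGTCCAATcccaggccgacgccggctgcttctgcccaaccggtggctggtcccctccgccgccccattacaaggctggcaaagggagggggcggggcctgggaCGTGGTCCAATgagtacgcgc
CALR: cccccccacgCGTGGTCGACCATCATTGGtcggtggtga
XBP1: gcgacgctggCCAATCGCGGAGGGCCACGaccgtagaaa
CANX: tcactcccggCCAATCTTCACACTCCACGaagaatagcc
HERPUD1: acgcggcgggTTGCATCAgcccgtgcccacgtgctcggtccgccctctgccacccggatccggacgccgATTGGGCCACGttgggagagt
SDF2L1: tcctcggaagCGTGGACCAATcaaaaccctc
CRELD2: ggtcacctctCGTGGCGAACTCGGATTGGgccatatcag

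HSP90B1 and HYOU1 each hold 2 of these elements. The first run of capitals in HYOU1 joins an element of the second form to an overlapping TGACGTGG, a core word of XBP1 and ATF6 sites, which is present in 2 of the 30 promoters (HYOU1 and VCP) and in 217 of all (0.795%). The first run of capitals in HERPUD1 is TGATG, any base, then AA, read on the opposite strand, the core of the composite element of ATF4 and CHOP. That word was found in HERPUD1 and CHAC1 (2 of 30) and in 3.67% of all promoters. The tenth gene with an ER stress element is ERO1B.

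With TGF-β1, 10 of the 31 tested genes rose and 0 fell (limma, adjusted p below 0.05 over all genes tested, Benjamini-Hochberg adjustment). The 10 were HSPA5, HSP90B1, HYOU1, CALR, PDIA3, MANF, VCP, XBP1, TRIB3 and CEBPB. Over all 16590 tested genes 9.12% were called, 6.12% higher and 3.0% lower, while the listed genes were called higher at 32.3%. Weakly expressed genes lower the share over all genes, and all 31 listed genes had a mean of at least 2 RPKM. Among genes at that level 1185 of 10440 were called higher, and 11 of the 31. By the unadjusted p below 0.05, 17 were higher and 1 lower (DNAJB9), and by limma-voom on recovered reads 14 rose and 1 fell, again DNAJB9. The limma-voom fit kept the authors' library sizes, so it shares the scaling of the deposited values. Both TGF-β1 libraries lay above both controls in 20 of the 31 genes, against 29.5% of all tested genes, and below them in 2, against 24.6%. The median log2 difference was 0.30, on the log2(RPKM + 0.5) scale used throughout, against 0.03 for all tested genes. The genes were listed with earlier results of these data known, so these shares carry no test.

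Scaling bears on changes of this size. The authors' library sizes stand at 1.02 and 0.979 times the recovered reads of the controls, and at 0.896 and 0.864 times those of the TGF-β1 libraries, which raises the RPKM of the latter. With scaling to the sum of recovered reads instead, the median of all tested genes moved from 0.03 to -0.13 and that of the listed genes from 0.30 to 0.13. Of the listed genes 7 were then called higher and 0 lower, while over all genes 655 were called higher and 883 lower, against 1015 and 498 as deposited. HSP90B1, PDIA3 and VCP were no longer called. After quantile normalisation HSP90B1, PDIA3, VCP and MANF did not pass (adjusted p 0.0507 to 0.297, limma), and without the filter on low values HSP90B1, CALR, PDIA3 and MANF did not (0.0537 to 0.0648). In a limma fit without a variance trend 0 of the 10 passed, with adjusted p from 0.0507 (CEBPB) to 0.191 (PDIA3), and over all genes 424 were called.

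**Figure D1:**
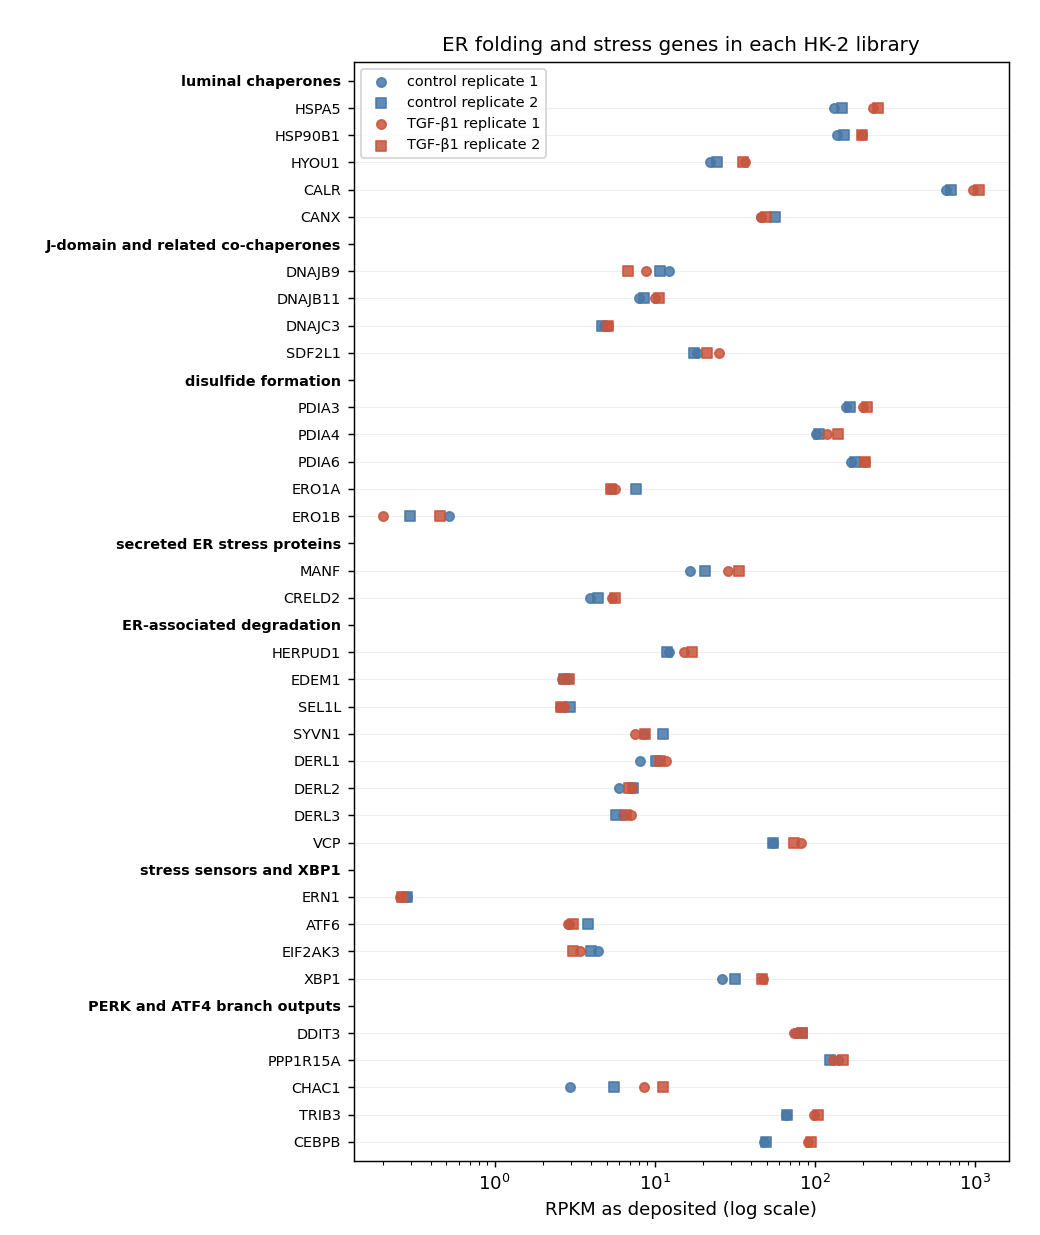
RPKM as deposited, on a log scale, for each of the 33 genes in each library, grouped by role. Circles are replicate 1 and squares replicate 2, with controls in blue and TGF-β1 in red. CALR is the most abundant, between 658 and 1060.2 RPKM, and the transcripts of the sensors ATF6, EIF2AK3 and ERN1 all lie below 5 RPKM.

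As a share of the summed RPKM of all nuclear genes, which does not depend on the factor that scaled a library, the 33 genes made up 0.826% and 0.846% of the control libraries and 0.981% and 1.01% of the TGF-β1 libraries. The groups did not overlap. The 5 luminal chaperones accounted for most of the difference, with 0.420% and 0.440% in controls and 0.541% and 0.560% with TGF-β1. Much of this came from CALR alone, with 0.277% and 0.285% in controls and 0.355% and 0.373% with TGF-β1. HSPA5 took 0.0555% and 0.0596% against 0.0841% and 0.0877%. The enzymes of disulfide formation took 0.182% and 0.186% against 0.194% and 0.198%. The 4 co-chaperones took 0.0183% and 0.0170% in controls and 0.0179% and 0.0154% with TGF-β1, where the groups overlapped. In bulk RNA, a change in every cell and a change in the share of cells that express a gene cannot be told apart.

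Of the 5 luminal chaperones, 4 rose. HSPA5, which encodes BiP, the Hsp70 of the ER and the main brake on the stress sensors (ENSG00000044574.7, hg38 chromosome 9, 125234853 to 125241330, minus strand), measured 132 and 147 RPKM in controls and 231 and 249.5 RPKM with TGF-β1. Both TGF-β1 libraries were well above both controls. It rose 1.72-fold, from 139 ± 10.9 to 240.2 ± 13.2 RPKM (SD, n = 2 per group), with a log2 difference of 0.79 and a standard error of 0.08 (adjusted p = 0.00886, limma). Apart from the fit without a variance trend, its call held under every one of the 14 alternative settings. Of the 50-base words of HSPA5 transcripts, 9.54% also occur in other genes, and the part of this in its value was not tested. HYOU1, the Hsp110-type exchange factor of BiP, measured 22.3 and 24.5 RPKM in controls and 36.8 and 35.5 RPKM with TGF-β1, a 1.54-fold rise (log2 0.62, adjusted p = 0.0156, limma). This call was lost without TGF-β1 replicate 1 (adjusted p = 0.0613) and without TGF-β1 replicate 2 (0.0549).

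CALR, which encodes calreticulin, the soluble lectin and calcium-binding chaperone of the lumen, was the most abundant of the 33 transcripts per length. It measured 658 and 704 RPKM in controls and 973 and 1060.2 RPKM with TGF-β1, and rose 1.49-fold (log2 0.58, SE 0.08, adjusted p = 0.0168, limma). Without control replicate 1 the call was lost (adjusted p = 0.0691). Of the exon bases of CALR, 9.95% overlap AC092069.1 on the opposite strand, and the part of its reads in the CALR value was not tested. HSP90B1, the Hsp90 of the ER (GRP94), measured 138 and 153 RPKM in controls and 197 and 198 RPKM with TGF-β1, a 1.35-fold rise (log2 0.43, adjusted p = 0.0264, limma). Its call was lost without any of 3 libraries: control replicate 1 (adjusted p = 0.0674), TGF-β1 replicate 1 (0.0751) and TGF-β1 replicate 2 (0.0862).

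CANX, which encodes calnexin, the membrane-bound partner of calreticulin, behaved otherwise. It measured 46.0 and 56.2 RPKM in controls and 46.2 and 49.5 RPKM with TGF-β1, so the groups overlapped. Its log2 difference was -0.08 (interval -0.37 to 0.20 at 95% confidence, adjusted p = 0.701, limma), and its sign changed without control replicate 2 (0.06). The ratio of HSPA5 to CANX inside each library, which no scaling factor can move, was 2.86 and 2.62 in controls and 4.99 and 5.04 with TGF-β1. That of CALR to CANX was 14.3 and 12.5 against 21.0 and 21.4. In these values the 2 lectin chaperones, which act in the same folding cycle, changed unequally, although the promoters of both hold an ER stress element. These ratios and those given below were not planned. Each puts a gene that was higher over one that was not, so they describe the values and carry no test.

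The co-chaperones of BiP showed no called change (0 of 4 by limma, with 2 higher and 1 lower at an unadjusted p below 0.05, and 1 lower by limma-voom). DNAJB9 (ERdj4), known as a target of XBP1 and as a repressor of IRE1α, measured 12.3 and 10.8 RPKM in controls and 8.86 and 6.85 RPKM with TGF-β1. Both TGF-β1 libraries lay below both controls, opposite to HSPA5, and the log2 difference was -0.53 (95% confidence interval -0.93 to -0.14, adjusted p = 0.108, limma). By limma-voom on the recovered reads, which were 118 and 143 against 104 and 91, its adjusted p was 0.0119. SDF2L1, a luminal partner of the J-domain protein DNAJB11, measured 18.4 and 17.7 RPKM against 25.1 and 21.2 RPKM (log2 0.34, adjusted p = 0.12). DNAJB11 (ERdj3) measured 7.95 and 8.63 RPKM against 10.1 and 10.6 RPKM (log2 0.30, adjusted p = 0.151), and DNAJC3 (p58IPK), an inhibitor of PERK, 4.83 and 4.70 RPKM against 5.14 and 5.11 RPKM (log2 0.10, adjusted p = 0.694). In these 3 the TGF-β1 libraries were higher as deposited, but DNAJC3 changed sign when scaled by total recovered reads (-0.07).

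**Figure D2:**
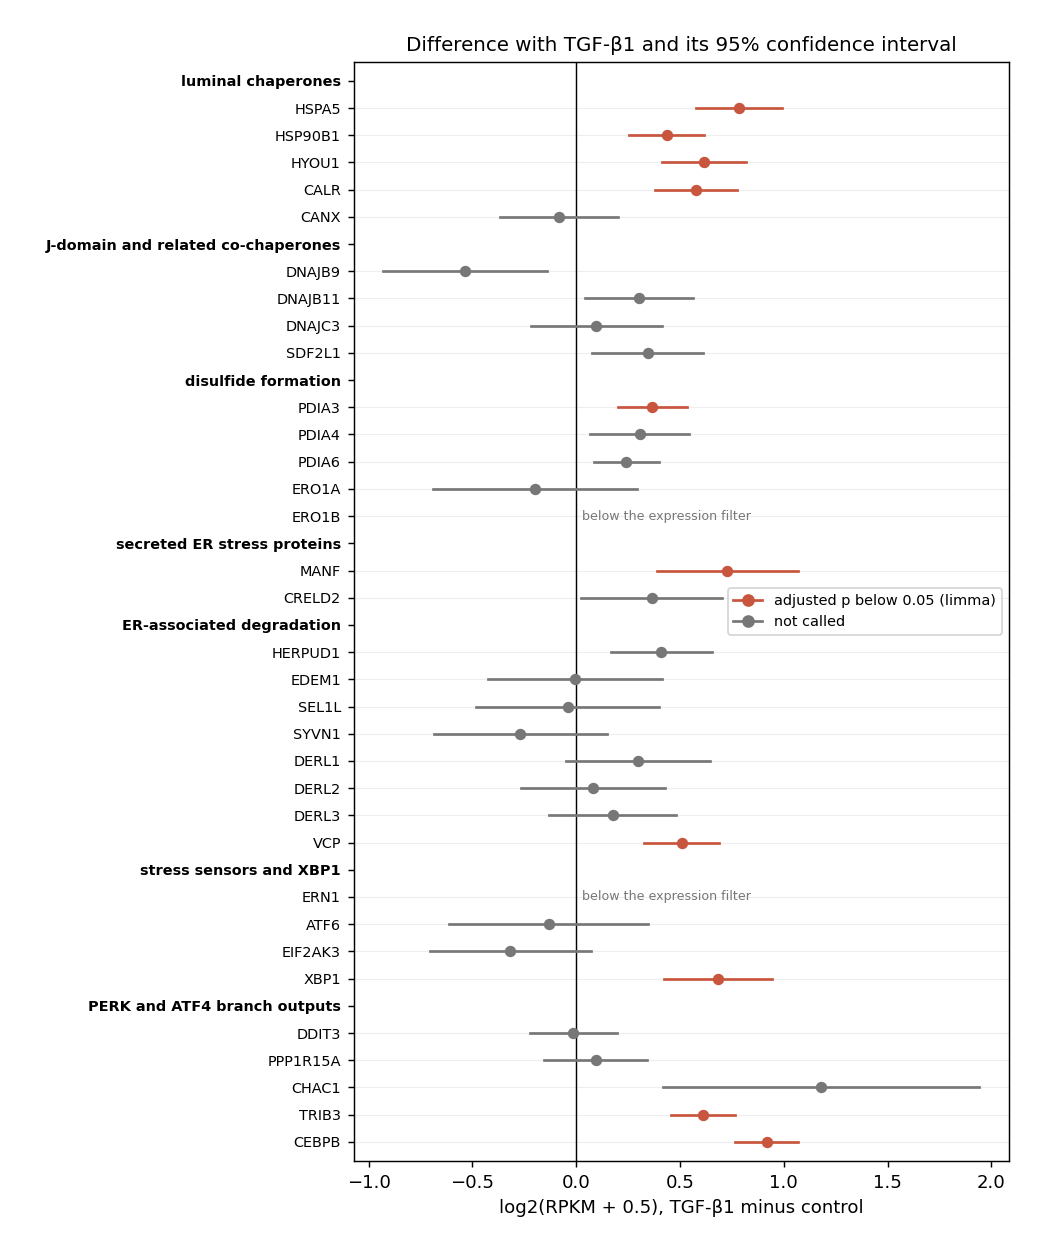
Log2 difference of RPKM + 0.5 between TGF-β1 and control for the 31 tested genes, with 95% confidence intervals from limma, where red marks an adjusted p below 0.05 and grey the rest. All 10 red intervals lie above 0, and the largest difference, that of CHAC1 (1.18), has the widest interval and was not called.

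Among the enzymes of disulfide formation 1 of 4 tested genes rose. PDIA3 (ERp57), the disulfide isomerase that works with calnexin and calreticulin on glycoproteins, measured 156 and 165 RPKM in controls and 201 and 213 RPKM with TGF-β1, a 1.29-fold rise (log2 0.37, adjusted p = 0.0323, limma). The call did not survive the removal of any single library (adjusted p 0.0609 to 0.125). Of the 50-base words of PDIA3 transcripts, 15.3% also occur in another gene, mainly its pseudogene PDIA3P1, which had only 37 to 70 reads a library against 2245 to 4255 for PDIA3. PDIA6 measured 168 and 179 RPKM against 205 and 204 RPKM (log2 0.24, adjusted p = 0.08, and -0.04 after quantile normalisation). PDIA4 (ERp72) measured 102 and 107 RPKM against 119 and 139.9 RPKM (log2 0.31, adjusted p = 0.123). For both isomerases the TGF-β1 values were above both controls, and limma-voom called them higher (adjusted p = 0.00721 and 0.00449).

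ERO1A, the oxidase that recharges the disulfide isomerases, measured 5.29 and 7.65 RPKM in controls and 5.66 and 5.33 RPKM with TGF-β1. Its groups overlapped, its log2 difference was -0.20 (interval -0.69 to 0.29 at 95% confidence, adjusted p = 0.588, limma), and its sign changed without control replicate 2 (0.05). ERO1B, the second oxidase, had 9 and 7 reads in the control libraries and 4 and 11 in the others, too few to detect a difference at this depth. The isomerases were thus present at 102 to 213 RPKM in every library, and the oxidases at no more than 7.65 RPKM.

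MANF and CRELD2 encode small luminal proteins that are released under ER stress. MANF (length worked out from its values, since its identifier has another version in the annotation) measured 16.7 and 20.6 RPKM in controls and 28.8 and 33.4 RPKM with TGF-β1, and rose 1.67-fold (log2 0.73, SE 0.13, adjusted p = 0.0362, limma). Without control replicate 1 (adjusted p = 0.0615) or TGF-β1 replicate 2 (0.112) it was not called. CRELD2 measured 3.97 and 4.43 RPKM against 5.43 and 5.65 RPKM. Its groups did not overlap and its log2 difference was 0.36, but on 69 to 137 reads a library it did not pass (adjusted p = 0.174).

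Of 8 genes of ER-associated degradation, 1 rose. It was VCP, the cytosolic AAA ATPase (p97) that pulls proteins out of the ER membrane and has many other cellular clients. It measured 54.6 and 54.5 RPKM in controls and 81.4 and 74.3 RPKM with TGF-β1, a 1.43-fold rise (log2 0.51, adjusted p = 0.0184, limma) that was lost without TGF-β1 replicate 1 (adjusted p = 0.0663). HERPUD1, a membrane scaffold of the ligase complex, measured 12.3 and 11.9 RPKM against 15.3 and 17.2 RPKM (log2 0.41, adjusted p = 0.0659), and passed among genes with a mean of at least 2 RPKM (0.0451) and by limma-voom (0.00438).

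The core of the HRD1 ligase showed no such pattern. SYVN1, which encodes the ligase HRD1 itself, measured 8.61 and 11.3 RPKM in controls and 7.55 and 8.71 RPKM with TGF-β1 (log2 -0.27, adjusted p = 0.391). SEL1L, its membrane adaptor, measured 2.55 and 2.97 RPKM against 2.71 and 2.61 RPKM (log2 -0.04, 95% confidence interval -0.48 to 0.40). EDEM1, a mannosidase-like protein that marks glycoproteins for disposal, measured 2.86 and 2.72 RPKM against 2.65 and 2.91 RPKM (log2 -0.01, 95% confidence interval -0.43 to 0.41). The groups of all 3 overlapped, and the intervals of SEL1L and EDEM1 leave room for changes in either direction that these libraries could not show. Other genes overlap 8.93% of the exon bases of SYVN1, among them FAU on the same strand, and 5.97% of its 50-base words also occur in FAU or MIR6751; the part of their reads in its value was not tested. Inside each library the ratio of HERPUD1 to SYVN1 was 1.42 and 1.05 in controls and 2.03 and 1.97 with TGF-β1.

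The derlins, membrane proteins of the same retrotranslocation channel, did not pass either. DERL1 measured 8.14 and 10.2 RPKM in controls and 11.8 and 10.8 RPKM with TGF-β1 (log2 0.30, adjusted p = 0.262), and DERL2 5.98 and 7.28 RPKM against 7.18 and 6.87 RPKM (log2 0.08, adjusted p = 0.766). DERL2 changed sign when scaled by total recovered reads (-0.09). DERL3 measured 6.33 and 5.74 RPKM against 7.13 and 6.63 RPKM (log2 0.18, adjusted p = 0.446). Its value is uncertain, because 77.0% of its exon bases overlap those of genes on the opposite strand, chiefly SMARCB1 at 46.4 to 50.6 RPKM, and no source used here gives the strand setting of the counting.

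Transcripts of the 3 sensors were low and none was called changed. ATF6 measured 2.90 and 3.82 RPKM in controls and 2.88 and 3.11 RPKM with TGF-β1 (log2 -0.13, adjusted p = 0.728, and 0.04 without control replicate 2). EIF2AK3, which encodes PERK, measured 4.42 and 3.97 RPKM against 3.43 and 3.11 RPKM. Both TGF-β1 libraries were below both controls, with a log2 difference of -0.32 (interval -0.71 to 0.07 at 95% confidence) and an adjusted p of 0.283. ERN1, which encodes IRE1α, did not reach the filter, with 10 and 14 reads in the control libraries and 11 and 13 in the others. Sensor activity depends on protein modification and cannot be read from these levels.

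XBP1, the transcription factor downstream of IRE1α (ENSG00000100219.16), did rise. It measured 26.4 and 31.7 RPKM in controls and 47.2 and 46.5 RPKM with TGF-β1, a 1.61-fold rise from 29.1 ± 3.73 to 46.8 ± 0.493 RPKM (log2 0.68, SE 0.10, adjusted p = 0.0219, limma). The gene-level value pools the spliced and unspliced forms, so it says nothing of splicing. Its call was lost without TGF-β1 replicate 1 (adjusted p = 0.0622) and without TGF-β1 replicate 2 (0.0646). Beside it, the ratio of XBP1 to ATF6 inside each library went from 9.13 and 8.31 to 16.4 and 14.9.

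Outputs of the PERK and ATF4 branch were uneven. CEBPB, a bZIP factor with several inputs besides ER stress (ENSG00000172216.5), had the smallest p of the 33. It measured 48.2 and 49.3 RPKM in controls and 91.1 and 94.1 RPKM with TGF-β1, a 1.90-fold rise (log2 0.92, SE 0.06, adjusted p = 0.00305, limma). TRIB3, a pseudokinase induced by ATF4 and CHOP that curbs their activity, measured 66.0 and 67.1 RPKM against 99.5 and 104 RPKM, a 1.53-fold rise (log2 0.61, SE 0.06, adjusted p = 0.00792, limma). Both calls held with any library left out and under every scaling tried, and were lost only in the fit without a variance trend.

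DDIT3, which encodes the pro-apoptotic factor CHOP, showed no called difference. It measured 76.5 and 82.6 RPKM in controls and 74.6 and 83.1 RPKM with TGF-β1, with a log2 difference of -0.01 (interval -0.22 to 0.19 at 95% confidence, adjusted p = 0.936, limma). Of its exon bases 31.6% overlap MARS1 (17.8 to 29.5 RPKM, higher with TGF-β1) and MBD6 (25.6 to 31.8 RPKM) on the opposite strand, and the part of their reads in this value was not tested. PPP1R15A (GADD34), the phosphatase subunit that ends translational arrest, measured 139 and 125 RPKM against 131 and 151 RPKM (log2 0.09, adjusted p = 0.613, and -0.09 when scaled by total recovered reads). The ratio of TRIB3 to DDIT3 inside each library was 0.862 and 0.812 in controls and 1.33 and 1.26 with TGF-β1, and that of CEBPB to DDIT3 0.630 and 0.597 against 1.22 and 1.13. In these libraries TRIB3 and CEBPB thus moved apart from CHOP whichever scaling factor is used, but the pairs were not planned and the difference was not tested.

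CHAC1, a glutathione-degrading enzyme of the ATF4 and CHOP branch, had the largest difference of the 33 but also the widest spread. It measured 2.94 and 5.53 RPKM in controls and 8.59 and 11.2 RPKM with TGF-β1, on 20, 53, 73 and 108 reads. The TGF-β1 libraries were above both controls and the ratio of means was 2.34, with a log2 difference of 1.18 (95% confidence interval 0.42 to 1.94, adjusted p = 0.0795, limma). It passed by limma-voom (adjusted p = 0.000376) and without control replicate 2 (0.0197).

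**Figure D3:**
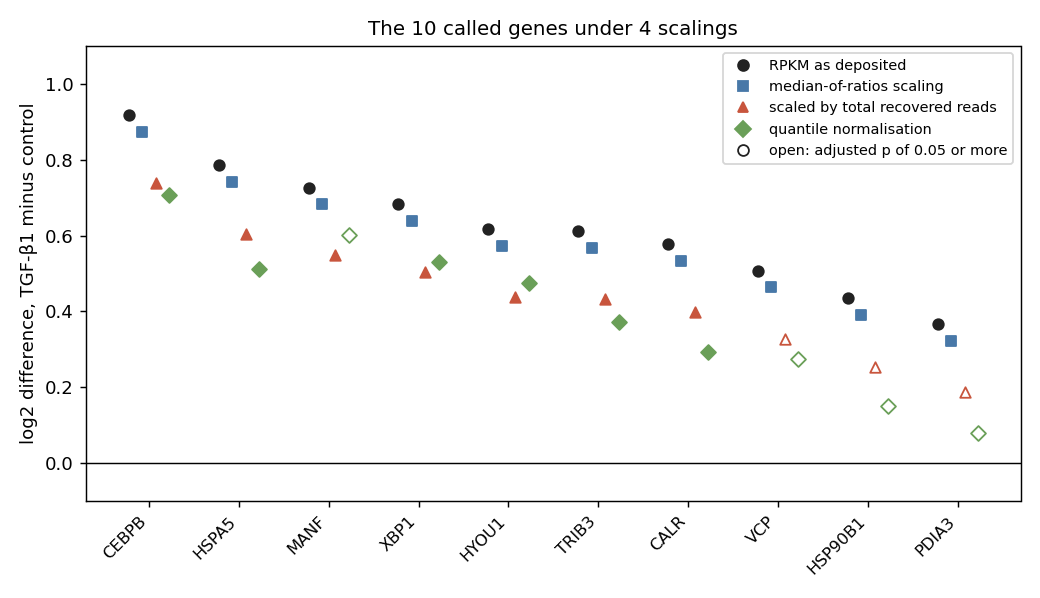
Log2 difference between TGF-β1 and control for the 10 called genes under 4 scalings, where filled symbols have an adjusted p below 0.05 and open ones do not. CEBPB, HSPA5, XBP1, HYOU1, TRIB3 and CALR stay filled throughout, while PDIA3 goes from 0.37 as deposited to 0.08 after quantile normalisation.

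Among the genes with a promoter in the RefSeq table, those with an ER stress element in the window searched were set beside those without. Of the 9 tested with the element, 5 rose and 0 fell, 8 had both TGF-β1 libraries above both controls, and the median log2 difference was 0.43. Of the 19 tested without it, 4 rose (MANF, VCP, TRIB3 and CEBPB) and 0 fell, 9 had both TGF-β1 libraries above, and the median was 0.09. Over all tested genes 6.12% were called higher and 29.5% had both TGF-β1 libraries above both controls. At an unadjusted p below 0.05 the element group had 8 higher and 0 lower, and the other 8 higher and 1 lower. With total-read scaling the medians were 0.25 and -0.09, with 4 and 3 genes called higher. This difference was not tested.

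Other genes of the ER and its stress response were set beside these in 7 lists of 147 symbols. Of 139 tested, 12 rose and 3 fell, with a median log2 difference of 0.07. They were called higher at 8.63%, against 6.12% of all tested genes. The split turned with the scaling, to 5 called higher and 8 lower with scaling to the sum of recovered reads and to 5 and 7 after quantile normalisation. The eighth list, of chaperones outside the ER, serves as a comparison. With the filter raised to a mean of at least 2 RPKM, 15 of 153 genes over all 8 lists were called higher. Of all genes at that level 1185 of 10440 were, so the lists showed no excess there. The lists were chosen with earlier results of these data known.

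No change was called among 16 other disulfide isomerases and redox proteins of the ER (limma, with 1 higher and 1 lower at an unadjusted p below 0.05, and 1 higher by limma-voom). None was called among 18 glycoprotein folding and co-chaperone genes (1 higher at the unadjusted p, 1 higher by limma-voom). Among 28 other degradation genes none was called either, with 5 higher and 1 lower at the unadjusted p, and 2 higher and 1 lower by limma-voom. Their median log2 differences were -0.06, 0.08 and -0.02.

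Of 8 prolyl isomerases of the ER, which ease the slow step of collagen folding, 2 rose. PPIB (cyclophilin B) measured 241 and 246 RPKM in controls and 343 and 360.2 RPKM with TGF-β1 (log2 0.53, adjusted p = 0.0106, limma), and FKBP10 67.1 and 65.5 RPKM against 83.2 and 87.2 RPKM (log2 0.36, adjusted p = 0.0297). The FKBP10 call was lost on removal of any library (adjusted p 0.0666 to 0.14). Among 30 genes of the translocon, signal peptidase and oligosaccharyltransferase, 2 rose and 1 fell. TRAM1, a translocating chain-associated membrane protein, fell from 61.6 and 78.1 RPKM to 32.8 and 30.8 RPKM (log2 -1.11, adjusted p = 0.0105, limma). SEC61B, a subunit of the channel (log2 0.53, adjusted p = 0.0456), and DAD1, a subunit of the oligosaccharyltransferase (log2 0.55, adjusted p = 0.0496), were called only narrowly, and total-read scaling left both above 0.05 (0.101 and 0.0732). So did the removal of control replicate 1 (0.0778 and 0.07), TGF-β1 replicate 1 (0.126 and 0.0774) or TGF-β1 replicate 2 (0.0767 and 0.133).

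Of 15 tested activators and further bZIP factors of the ER, 2 rose. CREB3L1 (OASIS), an ER-anchored bZIP factor that is cut like ATF6 and is known to drive collagen genes, rose 2.52-fold. It measured 12.6 and 13.9 RPKM in controls and 30.8 and 36.1 RPKM with TGF-β1 (log2 1.30, SE 0.11, adjusted p = 0.0051, limma), and was called under all 14 alternative settings. BAK1, a pore-forming BCL2 relative, was the other (log2 0.44, adjusted p = 0.0381). It was not called with median-of-ratios scaling (0.0571), quantile normalisation (0.102) or total-read scaling (0.147), and its call also rested on all 4 libraries (adjusted p 0.0627 to 0.163 with any of them removed).

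Of 24 tested eIF2α kinases, eIF2B subunits, ATF4 and targets of ATF4 and CHOP, 6 rose and 2 fell. The share called was 33.3%, against 9.12% of all tested genes, and 25% were called higher, against 6.12%. The median log2 difference was 0.08. With total-read scaling 3 were called higher and 2 lower, and so they were after quantile normalisation. ATF4 measured 220.0 and 229.8 RPKM in controls and 367 and 387 RPKM with TGF-β1 (log2 0.74, adjusted p = 0.00505, limma). SESN2, a stress-induced brake on mTORC1, measured 27.1 and 28.1 RPKM against 43.7 and 43.3 RPKM (log2 0.65, adjusted p = 0.00844). NUPR1, a small chromatin protein, measured 0.338 and 0.506 RPKM against 2.40 and 2.30 RPKM (log2 1.63, adjusted p = 0.0206), a call lost without control replicate 1 (0.0507) and without either TGF-β1 library (0.0949 and 0.0971). The 2 that fell are named after their values were seen. EIF2AK2 (PKR), the eIF2α kinase that senses double-stranded RNA, fell from 8.08 and 8.28 RPKM to 4.78 and 4.02 RPKM (log2 -0.83, adjusted p = 0.0261), a call lost on removal of any library (0.052 to 0.105). STC2, a secreted glycoprotein, fell from 23.4 and 25.1 RPKM to 17.0 and 17.6 RPKM (log2 -0.48, adjusted p = 0.0289), a call lost without control replicate 2 (0.0732) or either TGF-β1 library (0.12 and 0.105).

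For comparison outside the ER, of 30 cytosolic and mitochondrial chaperones 2 rose and 1 fell, with a median of 0.08. After quantile normalisation 1 was called higher and 5 lower. HSPB1 (Hsp27) rose from 396 and 425 RPKM to 711 and 811 RPKM (log2 0.89, adjusted p = 0.00819, limma) and CDC37, the kinase co-chaperone of Hsp90, also rose (log2 0.47, adjusted p = 0.0177), a call lost without control replicate 1 (0.0507) or TGF-β1 replicate 2 (0.0743). HSPA1B fell (log2 -0.44, adjusted p = 0.0323), a call lost without control replicate 1 (0.0828) or either TGF-β1 library (0.0869 and 0.141), and its reads are hard to tell from those of its near-identical copy HSPA1A.

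**Figure D4:**
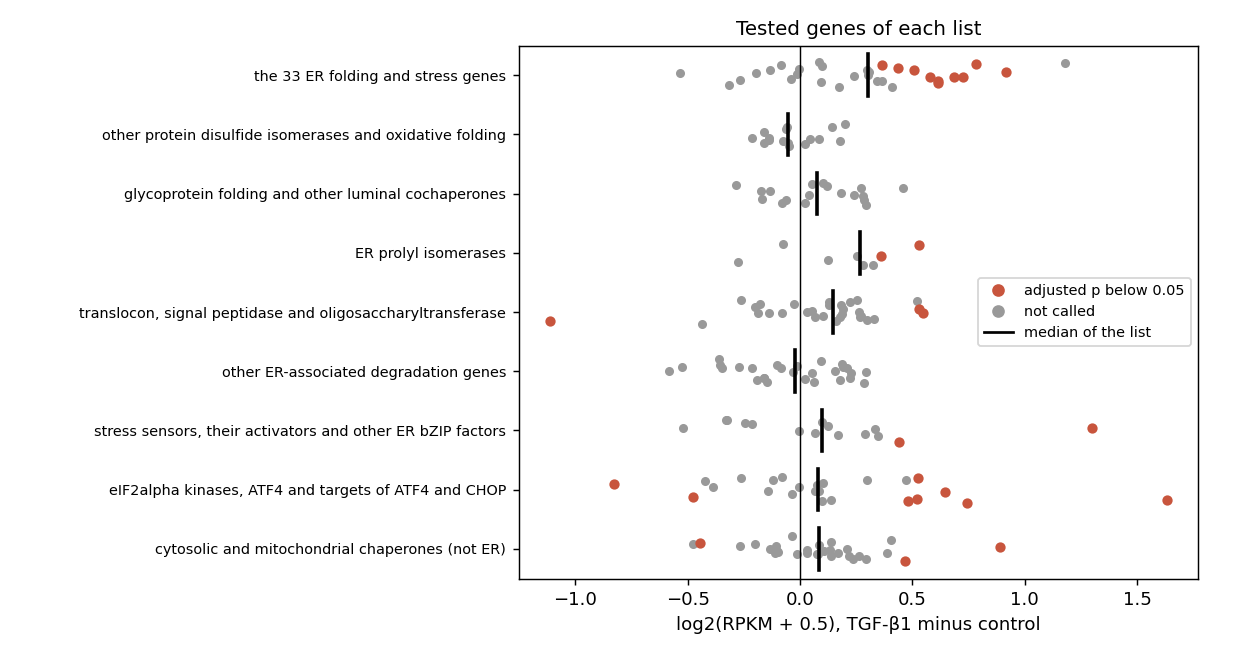
Log2 difference between TGF-β1 and control for every tested gene of the 33 and of the 8 companion lists, a point per gene, with called genes in red and the median of each list as a black bar. The 33 genes have the highest median (0.30), followed by the prolyl isomerases (0.27). The other lists have medians from -0.06 (other disulfide isomerases) to 0.14 (translocon list), with the cytosolic and mitochondrial chaperones (0.08) within that range.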

How the data were processed

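RNA-seq of 4 samples was used, 2 per group by title. The authors deposited RPKM values for 25609 genes by versioned Ensembl identifier. Per the submitters' processing notes, hg38, STAR 2.7.1a, bcl2fastq 2.20.0.422 and DESeq2 were used, in roles they do not state. What counted the reads, with which annotation, strand setting and filters, was not stated. Symbols came from a table of gene names, coordinates and exon lengths from GENCODE 29 (hg38). For 25498 genes the RPKM times length fell on whole reads plus 0.5 (within 0.01 read), and these reads were recovered. Of all genes 23853 had the same version in GENCODE 29, and for the others, MANF, DDIT3 and CHAC1 among them, the length was inferred from the values.

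Genes whose mean RPKM reached 0.5 were tested as log2(RPKM + 0.5) with limma 3.58.1 in R 4.3.3 (variance trend, no block, two-sided, Benjamini-Hochberg adjustment over 16590 genes, threshold 0.05). The offset understates changes of low genes. With 2 libraries against 2 a permutation test of a single gene cannot pass. Members and lists were chosen with earlier results of these data known. All members are named, and of each companion list the 3 called genes with the smallest p. The procedure was tested on simulated data. Alternatives changed the offset, filter, scaling, trend, count weighting and block, and left out each library. Protein sequences were not used here.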

Additional observations from a re-analysis of the deposited data

How the results depend on the processing

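All 10 called genes kept their direction under the 14 alternatives. The count of called genes among the 33 was 10 and became 6 without a filter on low values, 6 after quantile normalisation, 0 without a variance trend and 5 to 10 when a library was left out (6 without control replicate 1, 5 without either TGF-β1 library). Over all genes it was 1513 and became 977 without the filter, 424 without the trend, 3364 by limma-voom on recovered reads and 574 to 1138 when a library was left out. Over the 8 companion lists 18 (14 higher, 4 lower) became 2 without the trend, 40 by limma-voom and 6 to 13 when a library was left out, and its split became 6 higher and 12 lower after quantile normalisation and 7 and 10 with total-read scaling. Higher genes made up 67.1% of all calls as deposited, 62.0% with median-of-ratios scaling, 50.4% after quantile normalisation and 42.6% with total-read scaling. With the replicate number as a block 11 of the 33 were called (CHAC1 being the addition, adjusted p = 0.0281), 1344 of all genes and 16 of the companion genes. The labels state no pairing, and same-numbered libraries did not deviate together (a correlation of 0.03 across genes, over 2 numbers).

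By list, the disulfide isomerases (0 called) had 1 after quantile normalisation and 2 with total-read scaling, all lower, and 1 by limma-voom. The glycoprotein folding genes (0) had 1 in each of these, and the other degradation genes (0) had 3 by limma-voom. The prolyl isomerases (2) had 1 after quantile normalisation, 1 with total-read scaling, 0 without the trend and 1 with each library left out. The translocon list (3) had 1 without the filter, 6 with a mean of at least 2 RPKM, 0 without the trend, 9 by limma-voom and 1 to 4 with a library left out. The sensors and bZIP factors (2 higher) had 1 higher and 1 lower after quantile normalisation and with total-read scaling, and 1 without the filter, with median-of-ratios scaling, without the trend, with the block and with each library left out. The ATF4 and CHOP list (8) had 5 after quantile normalisation, 5 with total-read scaling, 1 without the trend and 2 to 4 with a library left out. The chaperones outside the ER (3) had 6 after quantile normalisation (1 higher, 5 lower), 0 without the trend, 10 by limma-voom and 1 to 3 with a library left out.

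Signs changed in 16 of the gene-by-setting values, in 10 genes that did not pass. With a library left out, the log2 difference ran from -0.2281 to 0.0583 for CANX, -0.4441 to 0.0486 for ERO1A, -0.0617 to 0.0502 for EDEM1, -0.1366 to 0.0523 for SEL1L, -0.0489 to 0.2148 for DERL2, -0.3050 to 0.0405 for ATF6, -0.0913 to 0.0637 for DDIT3 and -0.0098 to 0.1967 for PPP1R15A. Scaled by total recovered reads it was -0.0682 for DNAJC3, -0.0855 for DERL2 and -0.0870 for PPP1R15A, and after quantile normalisation -0.0375 for PDIA6 and -0.17 for PPP1R15A. EDEM1 stood at 0.0017 by limma-voom. The cause was not tested. ERN1 and ERO1B, with 4 to 14 reads a library, are beyond this depth.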

Other observations

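The ER stress element was also followed from the sequence to the data, a step added after seeing the data. Of the 37 promoters in the RefSeq table that hold either form, 27 belong to genes outside the 33, and 15 of these were in the table and tested. Of the 15, 1 rose and 1 fell, and 4 had both TGF-β1 libraries above and 4 below both controls, with a median log2 difference of 0.02 against 0.03 for all tested genes. Over all tested genes 6.12% were called higher and 3.0% lower, and 29.5% lay above and 24.6% below both controls. The gene that rose was GYS1, muscle glycogen synthase, from 5.66 and 6.34 to 12.3 and 13.2 RPKM (log2 1.03, adjusted p = 0.0098, limma). The gene that fell was CNKSR1, a scaffold of Ras signalling, from a mean of 4.76 ± 0.226 to 1.54 ± 0.0566 RPKM (SD, n = 2 per group, log2 -1.37, adjusted p = 0.0126, limma). Without TGF-β1 replicate 2 neither was called (adjusted p = 0.05 for both). FICD, the ER enzyme that switches BiP off by AMPylation, holds the element too and measured 1.42 and 1.42 RPKM in controls and 0.930 and 0.672 RPKM with TGF-β1, below both controls but not called (adjusted p = 0.235). SERP1, a stress-associated protein of the translocon, measured 19.7 and 22.4 against 23.6 and 19.9 RPKM. These 4 genes were named after their values were seen.

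ASNS, asparagine synthetase, is a standard target of ATF4, and had few assigned reads in these libraries. It had 2 and 1 reads in the control libraries and 6 and 5 in the others, at 0.0716 to 0.351 RPKM, and was not tested. ATF4 itself stood at 220.0 to 387 RPKM and the ATF4 target TRIB3 at 66.0 to 104 RPKM in the same libraries. Overlap with other genes and shared 50-base words were not examined for ASNS, and how the reads were counted was not stated. Whether reads of ASNS were lost in counting was therefore not tested, and neither was any link of its low value to ATF4 activity. ASNS was also named after its values were seen.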
